A study of Mus musculus with 6 samples.

Results

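The ZBTB genes encode transcription factors built from an N-terminal BTB domain and C-terminal zinc fingers, and RP58, the factor removed in this study, belongs to them. They were taken here as the protein-coding genes of GENCODE vM21 whose symbol is Zbtb followed by a number, with or without the letter a or b. This gave 39 genes of the 34289 to which the deposited transcripts could be joined, Zbtb18 (the current name of Rp58) among them. RNA sequencing had been done on 6 libraries of postmitotic neurons from the cortex of mouse embryos at stage E14.5, embryonic day of gestation. Of these, 3 were controls with the genotype Rp58+/+, and 3 were labelled as mutants with the genotype Rp58-/-, homozygous for a deletion of the gene. The sources used here do not give the strain, the design of the deleted allele, how neurons were isolated, the sex of the embryos or whether each library came from a separate embryo. All p-values below thus rest on the spread among 6 libraries, and some of that spread may be technical.

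The BTB domain lets these proteins pair with each other and recruits corepressor complexes to DNA, while the zinc fingers read the DNA sequence. Most members studied so far repress their target genes. RP58 is made by young neurons of the cerebral cortex and is needed for their maturation. Its nearest relative is ZBTB42, known from skeletal muscle, and ZBTB20 is known as a regulator of hippocampal neurons and astrocytes. Many others were first described in blood and immune cells, or as proteins that bind methylated DNA or telomeres.

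RP58 is known to bind DNA at a sequence with the core ACATCTG, so the members' promoters were searched for these letters on both strands. The windows, of 300 bases from 250 before to 50 after each RefSeq transcription start (build GRCm38.p6), were at hand for 35 of the 39 members, 48 windows in all. The core stood in 3 of the 48 (6.25%), belonging to 2 members, Zbtb18 itself and Zbtb46, against 1454 of 32851 windows of all genes (4.43%). Zbtb18 held it in 2 of its 5 windows. In the first it began 130 bases before the start on the strand of the gene. In the other it lay on the opposite strand, so that it reads CAGATGT here, beginning 190 bases before the start. In Zbtb46 it began 189 bases before the start. The single Zbtb20 window held no such core, and it is shown because Zbtb20 changed most among the relatives of RP58. Capitals mark the core, each sequence is written 5′ to 3′ on the strand of the gene and stops before the start, and the second Zbtb18 entry is a stretch of 30 bases about its core.
Zbtb18, chr1:177442101-177442350 (+ strand): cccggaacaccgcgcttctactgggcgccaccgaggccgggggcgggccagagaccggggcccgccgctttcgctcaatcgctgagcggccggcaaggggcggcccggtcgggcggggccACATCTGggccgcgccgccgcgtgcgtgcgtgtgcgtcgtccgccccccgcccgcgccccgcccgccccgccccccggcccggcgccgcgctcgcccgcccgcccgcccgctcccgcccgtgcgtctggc
Zbtb18, chr1:177445620-177445649 (+ strand): gtcagctggatCAGATGTttataagcttcc
Zbtb46, chr2:181424389-181424638 (- strand): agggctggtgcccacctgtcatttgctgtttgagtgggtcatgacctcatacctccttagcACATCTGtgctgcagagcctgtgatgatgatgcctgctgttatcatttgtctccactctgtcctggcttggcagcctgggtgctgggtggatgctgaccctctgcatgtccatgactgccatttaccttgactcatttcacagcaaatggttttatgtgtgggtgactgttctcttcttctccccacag
Zbtb20, chr16:43247034-43247283 (+ strand): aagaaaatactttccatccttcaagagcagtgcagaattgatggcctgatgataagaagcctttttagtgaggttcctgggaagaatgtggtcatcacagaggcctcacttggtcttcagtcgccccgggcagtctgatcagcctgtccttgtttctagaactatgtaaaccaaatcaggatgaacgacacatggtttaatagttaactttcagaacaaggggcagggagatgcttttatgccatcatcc
These are matches of letters and not measured binding sites. The members' windows were richer in G and C than those of all genes, with a median of 64.3% against 52.7%, and held a median of 25 CpG dinucleotides against 7.

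The deposited values are estimated counts per transcript, from 34645505 to 75892649 per library, which were summed to genes. CPM, the counts scaled to the normalised library size, is the unit of level, and genes are compared with each other only as CPM per kilobase of effective length. The libraries fell into a pair of types that show in the deposited lengths. The effective length of long transcripts fell short of their length by the same number of bases in control 1, mutant 1 and mutant 2 (the fixed-length libraries). In control 2, control 3 and the library labelled mutant 3 it fell short by a smaller number that differed slightly between libraries (the estimated-length libraries). The genotypes were therefore compared with a term for library type in the model, and each mutant is set below against the controls of its own type. Zbtb18 itself goes partly against 1 label: its level against controls of the same type was 2.45% in mutant 1 and 2.40% in mutant 2, but 32.8% in the library labelled mutant 3. That library is therefore named by its label only, and calls are given with and without it. Neuronal markers were high in all libraries (7 genes, together 6776 to 8489 CPM in controls and 4811 to 6980 in mutants), and 5 of the 7 fell. Markers of intermediate progenitors summed to 173.5 to 259 CPM in controls and 407 to 512 in mutants, and 3 of the 4 rose. Of 8 radial glia genes 3 rose and 3 fell, and 3 of 4 cycling genes rose. Over all genes tested 7.92% rose and 7.01% fell. Without the library type term 1 neuronal, 1 intermediate progenitor, 4 radial glia and 0 cycling genes were called, against 2.36% of all genes. The markers of interneurons, microglia, meninges and the oligodendrocyte lineage each summed to under 3 CPM in every library. In the last list Sox10 had no count in any library. Pdgfra, the only gene of that list tested, rose, from 0.592 to 0.759 CPM in the controls to 1.18 to 2.53 in the mutants (adjusted p = 0.0202, edgeR). Of the interneuron genes 4 were tested and 1 rose, Dlx5, which reached at most 1.08 CPM (adjusted p = 0.0180, edgeR). Without the library type term neither Pdgfra nor Dlx5 was called (adjusted p = 0.351 and 0.119). The part of this shift in markers in the results on members was not tested.

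Expression of the family was broad and mostly moderate, with Zbtb18 far above the others in control neurons. In every library 36 of the 39 members reached 1 CPM, and between 27 and 31 reached 10 CPM. In the controls Zbtb18 stood at 528, 418 and 447 CPM per kilobase, which was 64.6%, 58.4% and 59.8% of the sum over all members. Zbtb12, a gene of the major histocompatibility region, and Zbtb17, which encodes the MYC partner MIZ-1, followed with means of 34.8 and 27.0 CPM per kilobase, and Zbtb5, Zbtb33 and Zbtb38 with 18.6, 17.3 and 17.2. The values of Zbtb12 ran from 19.5 to 64.3 CPM per kilobase and enclosed those of Zbtb17, at 25.8 to 28.7, so the order of this pair is not settled. The same holds for Zbtb5, Zbtb33 and Zbtb38, which ranged from 18.4 to 18.98, from 14.85 to 18.5 and from 6.68 to 23.4. Zbtb38 stood at 21.6 and 23.4 CPM per kilobase in controls 2 and 3, above the other two, and at 6.68 in control 1, below them. At the low end Zbtb7b, Zbtb32 and Zbtb42 had means of 0.2565, 0.151 and 0.0241 CPM per kilobase, and were the members that stayed under 1 CPM in every library. In mutants 1 and 2 the share of Zbtb18 in the family's sum was 3.60% and 3.43%, and in the library labelled mutant 3 it was 26.2%. The sum of the other 38 members was 289, 298 and 300.3 CPM per kilobase in the controls and 327, 334 and 351 in the mutants. Without Zbtb20 as well it was 286, 290 and 293 in the controls and 322, 330 and 320 in the mutants. Single genes weigh in these sums, as Zbtb12 stood at 64.3 in control 1 against 82.2 and 88.8 in mutants 1 and 2. The sums were not tested, so they do not show a rise of the family as a whole.

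**Figure D1:**
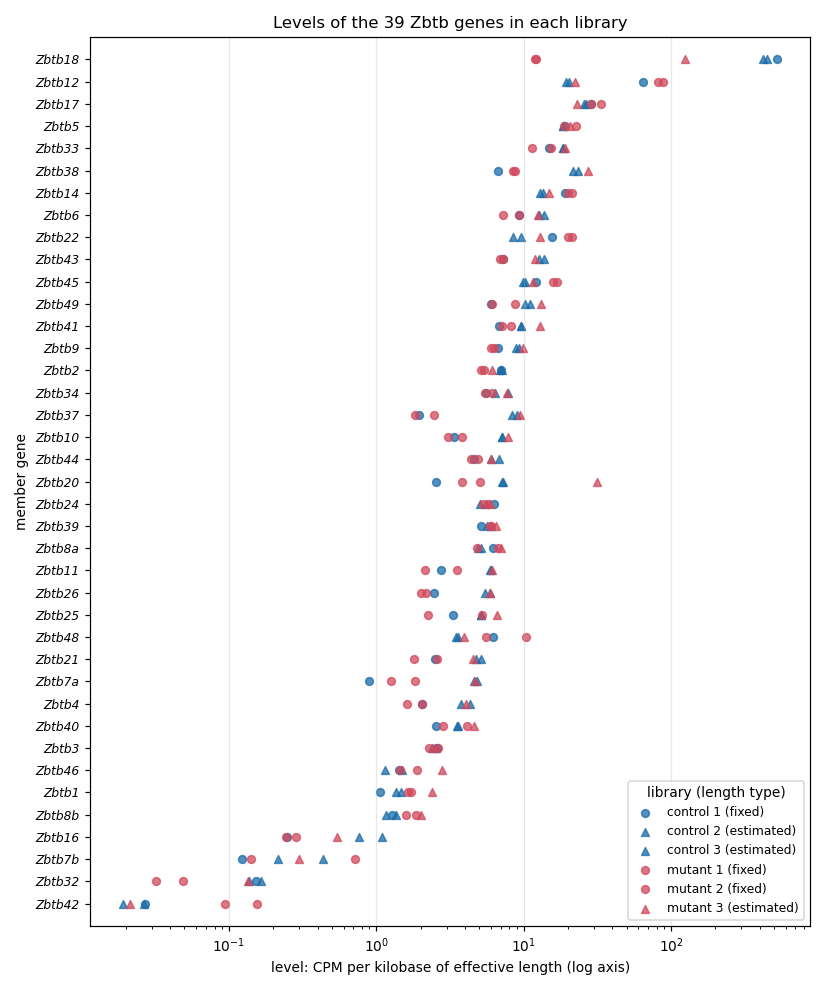
Levels of all 39 members in the 6 libraries, as CPM per kilobase of effective length on a log axis, ordered by the control mean. Zbtb18 lies at 418 to 528 in the controls, and several members, such as Zbtb12, Zbtb37 and Zbtb20, differ between fixed-length (circles) and estimated-length (triangles) libraries.

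Few relatives of RP58 differed between the genotypes. Of the 38 members that passed the filter on low counts, 5 were called (13.2%), against 14.9% of all 16985 genes tested, so the family's share was near the background. Zbtb20, Zbtb1, Zbtb38 and Zbtb22 rose, which is 10.5% of the members, whereas 7.92% of all genes rose. Zbtb18 alone fell, which is 2.63% of the members, whereas 7.01% of all genes fell. The test was edgeR's quasi-likelihood test with the library type term, and calls were made at a Benjamini-Hochberg adjusted p of 0.05 over all genes. Over the 38 members the median log2 fold change was 0.081, against -0.00077 over all genes tested, and 31 members (81.6%) moved by less than 0.5 on the log2 scale, against 71.7% of all genes. At an unadjusted p under 0.05, 12 members passed (31.6%, against 29.7% of all genes). Without the library type term no member was called (0 of 38, against 2.36% of all genes), and at an unadjusted p under 0.05 only Zbtb18 passed in that fit (2.63%, against 9.67% of all genes). Without the library labelled mutant 3 only Zbtb18 and Zbtb20 were called (2 of 39, or 5.13%, against 8.96% of all genes). The same pair was called by limma on log2(TPM + 1), 2 of 35 members (5.71%, against 6.81% of all genes). DESeq2 with the term called 8 of the 37 members to which it gave an adjusted p (21.6%, against 24.2% of all genes), the same 5 and also Zbtb46 and Zbtb12, which were higher, and Zbtb2, which was lower.

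**Figure D2:**
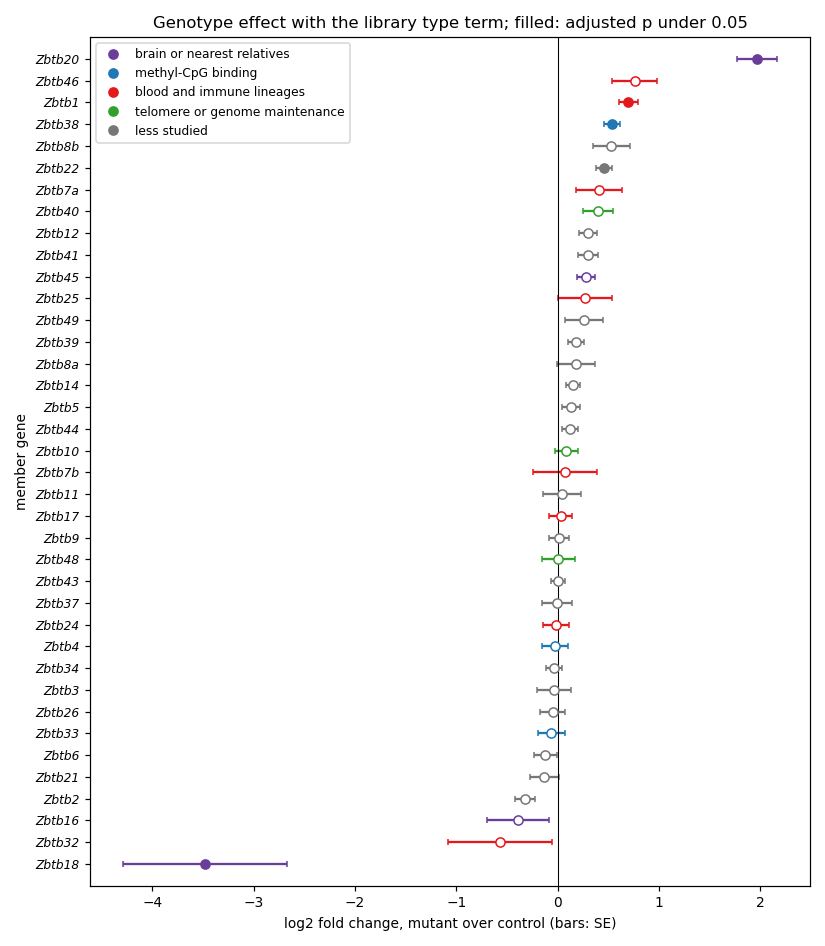
Log2 fold change of mutant over control with its standard error for the 38 tested members, from the fit with the library type term, coloured by role. Filled points mark the 5 members called. Zbtb18 lies at -3.48 and Zbtb20 at 1.97, while most others lie within 0.5 of 0.

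Among the members known from the brain or closest to RP58, Zbtb18 fell and Zbtb20 rose. Zbtb18, the gene named in the genotype labels, was nearly absent in mutants 1 and 2 but only reduced in the library labelled mutant 3. It stood at 1902 CPM in control 1 against 46.7 and 45.7 in mutants 1 and 2, and at 1587 and 1697 in controls 2 and 3 against 538 in the library labelled mutant 3. All mutants lay below all controls, but the library labelled mutant 3 kept 32.8% of its control mean where mutants 1 and 2 kept 2.45% and 2.40%. The log2 fold change was -3.48 ± 0.81 (SE, adjusted p = 0.0337, edgeR). It was -5.36 within the fixed-length and -1.61 within the estimated-length libraries, and this difference between the types was itself called (log2 difference -3.75, adjusted p = 0.00963, against 0.153% of all genes). The call was lost when control 3, mutant 1 or mutant 2 was left out (adjusted p = 0.0511, 0.119 and 0.0899), with log2 fold changes of -4.00, -2.96 and -2.94.

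Zbtb18 reads were divided by kallisto between a spliced model (Zbtb18-202, 2 exons) and a single-exon model (Zbtb18-201). Neither was called among the 42824 transcripts tested in the fit of all 6 libraries (adjusted p = 0.0747 and 0.875, edgeR). Without the library labelled mutant 3 both were called as lower (log2 fold changes -5.73 and -1.47, adjusted p = 0.0224 and 0.0389). The spliced model was also called without control 1 (-2.80, adjusted p = 0.0380). In CPM scaled over transcripts, the spliced model stood at 1995 in control 1 against 39.3 and 35.7 in mutants 1 and 2, and at 1269 and 1375 in controls 2 and 3 against 190.0 in the library labelled mutant 3. The single-exon model stood at 38.98 in control 1 against 14.1 and 14.1, and at 161 and 170.3 in controls 2 and 3 against 306 in the library labelled mutant 3. The library labelled mutant 3 was thus the highest of the 6 libraries for the single-exon model and below every control for the spliced model. Which exon the allele lacks was not known here, so no model could be tied to the deleted part.

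Zbtb20 encodes the repressor that is known to specify hippocampal pyramidal neurons and to act in glia. It stood at 12.6 CPM in control 1 against 37.25 and 34.4 in mutants 1 and 2. In the other type it stood at 33.1 and 39.6 CPM in controls 2 and 3 against 190.5 in the library labelled mutant 3. Each mutant thus exceeded the controls of its type, although mutants 1 and 2 lay in the range of controls 2 and 3. The log2 fold change was 1.97 ± 0.20 (SE, adjusted p = 0.00106, edgeR), a 3.93-fold rise. It was 2.85-fold within the fixed-length and 5.24-fold within the estimated-length libraries, and the difference between these was not called (adjusted p = 0.375). Corrected for the effective length of the gene in each library, the rise was smaller but still called (adjusted p = 0.0143, edgeR). By limma on log2(TPM + 1) it was 1.24 (adjusted p = 0.0136). In CPM per kilobase, Zbtb20 stood at 2.54 in control 1 against 5.03 and 3.82 in mutants 1 and 2. In controls 2 and 3 it stood at 7.135 and 7.255, against 31.6 in the library labelled mutant 3. The size of the rise thus depended on the correction for length. Zbtb20 was the only member called in each of the 6 fits that left a library out (log2 fold changes from 1.51 without the library labelled mutant 3 to 2.41 without control 1, adjusted p at most 0.00858). In the library labelled mutant 3 it was second among the members per kilobase, at 31.6, whereas it held places 22 and 24 in mutants 1 and 2 and places 27, 17 and 16 in controls 1, 2 and 3.

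The files list 21 transcript models of Zbtb20, more than of any other member. Most reads went to the longest, Zbtb20-204, with 15 exons and 26901 bases, which held 68.6% to 87.1% of the gene's counts in a library. It stood at 9.22 CPM in control 1 against 35.5 and 32.5 in mutants 1 and 2, and at 24.0 and 29.1 in controls 2 and 3 against 152.9 in the library labelled mutant 3. In the fit of all 6 libraries with the library type term, Zbtb20-204 was the only transcript of the family called (log2 fold change 2.21 ± 0.18, adjusted p = 0.0117, edgeR). That is 1 of 100 member transcripts, against 1.74% of all transcripts. Without the library type term none was called (0 of 100, against 0.0163% of all transcripts), and 4 passed an unadjusted p under 0.05 (4%, against 3.53%). The retained-intron model Zbtb20-213 ranged from 2.98 to 4.72 CPM in the controls and from 4.48 to 6.94 in the mutants and was not called (adjusted p = 0.730). Zbtb20-202, a short coding model, had no count in the fixed-length libraries and stood at 0.955 and 1.28 CPM in controls 2 and 3 against 8.15 in the library labelled mutant 3. The call for Zbtb20-204 was lost without control 2, control 3, mutant 1 or the library labelled mutant 3 (adjusted p = 0.0590, 0.0818, 0.0696 and 0.0622), at log2 fold changes of 2.11, 2.21, 2.23 and 1.89.

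**Figure D3:**
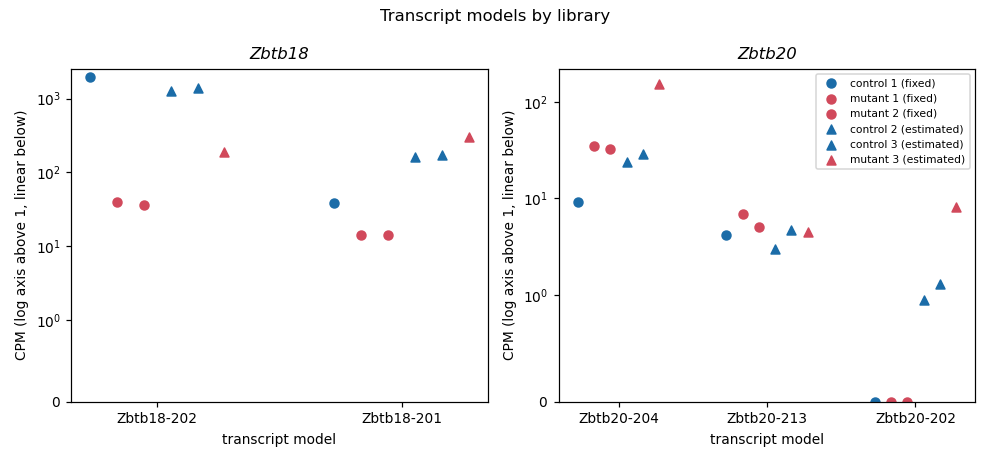
CPM of the main transcript models of Zbtb18 (left) and Zbtb20 (right) in each library, on an axis that is logarithmic above 1 and linear below. The spliced model of Zbtb18 is lower in every mutant, the single-exon model is highest in the library labelled mutant 3 at 306, and Zbtb20-204 is highest in the library labelled mutant 3 at 152.9.

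Because Zbtb20 is also a hippocampal and astrocyte gene, the markers of those cells are given beside it. Of 5 genes of the hippocampus and cortical hem, 3 were tested. While 7.92% of all genes tested rose, 2 of these 3 did. They were Prox1, a dentate gyrus factor, which stood at 0.616 to 0.922 CPM in the controls and at 10.3, 7.80 and 29.35 in mutants 1, 2 and 3, and Lmx1a (adjusted p = 0.00133 and 0.0431, edgeR). Without the library labelled mutant 3 the call held for Prox1 but not for Lmx1a (adjusted p = 0.00566 and 0.189). Lef1 was not called (adjusted p = 0.540), and Wnt8b and Wnt3a stayed under 1 CPM in every library. The summed level of the 5 was 19.0 to 26.9 CPM in controls and 25.5 to 54.4 in mutants. Of the 4 astrocyte genes, Aldh1l1 rose but reached only 0.374 CPM, Aqp4 and Slc1a2 were not called, and Gfap was not tested, with no count in control 1, mutant 1 and mutant 2. Their sum was 0.714 CPM in control 1 against 2.40 and 1.72 in mutants 1 and 2, and 61.0 and 41.3 in controls 2 and 3 against 44.8 in the library labelled mutant 3. Slc1a2 alone stood at 59.1 and 41.1 CPM in controls 2 and 3 and at 44.15 in the library labelled mutant 3. It thus made up most of the sum in the estimated-length libraries. In bulk RNA, more cells of a type and more RNA per cell cannot be told apart, and the part of either cell type in the rise of Zbtb20 was not tested.

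The remaining members of this group were not called. Zbtb42, the nearest relative of RP58, did not pass the filter. It had 2.46, 3.88 and 3.73 estimated counts in the controls against 12, 14.7 and 3.20 in the mutants. Its highest level was 0.276 CPM, in mutant 2. Zbtb16 (PLZF), which maintains germline stem cells and directs innate-like T cells, stood at 1.21, 5.47 and 3.81 CPM in the controls against 1.18, 1.385 and 2.68 in the mutants (log2 fold change -0.39 ± 0.31, adjusted p = 0.450). Zbtb45 stood at 26.9, 23.0 and 23.3 CPM in the controls and 36.5, 33.6 and 26.1 in the mutants. Its mutants lay above the controls of their own type, but the test was not passed (log2 fold change 0.28 ± 0.09, adjusted p = 0.0909).

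Of the 3 members known to bind methylated CpG, Zbtb38 rose. It stood at 38.6 CPM in control 1 against 51.9 and 52.0 in mutants 1 and 2, and at 59.2 and 58.4 in controls 2 and 3 against 92.5 in the library labelled mutant 3. Each mutant exceeded the controls of its type, while mutants 1 and 2 lay below controls 2 and 3. The log2 fold change was 0.54 ± 0.08 (adjusted p = 0.00580, edgeR). It was 0.32 (adjusted p = 0.0459) when the counts were corrected for the effective length of the gene in each library. The call was lost without the library labelled mutant 3 (0.43, adjusted p = 0.0722) and by limma on log2(TPM + 1) (0.35, adjusted p = 0.264). The model Zbtb38-201 had 0 counts in the fixed-length libraries and 16.4% to 22.7% of the gene's counts in the estimated-length libraries. Zbtb33 (Kaiso), the founding methyl-CpG binder of the family, stood at 71.9, 51.9 and 52.8 CPM in the controls and 74.2, 54.85 and 53.6 in the mutants (adjusted p = 0.804). Zbtb4, another methyl-CpG binder, stood at 12.4, 17.96 and 18.3 CPM in the controls and 10.1, 12.4 and 19.2 in the mutants (log2 fold change -0.026 ± 0.13, adjusted p = 0.924).

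Among the 8 members known from blood and immune lineages, Zbtb1, a factor of lymphoid development, rose. It stood at 12.75 CPM in control 1 against 19.6 and 20.6 in mutants 1 and 2, and at 17.9 and 16.5 in controls 2 and 3 against 28.8 in the library labelled mutant 3. The mutants did not overlap the controls even across library types. The rise was 1.625-fold (log2 fold change 0.70 ± 0.09, adjusted p = 0.00376, edgeR), and it was 1.58-fold within the fixed-length and 1.67-fold within the estimated-length libraries, called in both. Without the library labelled mutant 3 it was 0.66 on the log2 scale and no longer called (adjusted p = 0.0591), nor was it by limma on log2(TPM + 1) (0.39, adjusted p = 0.212). Zbtb25, its neighbour on the opposite strand, stood at 6.04, 6.88 and 6.63 CPM in the controls and 8.76, 4.43 and 8.92 in the mutants, which overlap (adjusted p = 0.577).

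Zbtb46, a marker of classical dendritic cells, had the largest log2 fold change among members that were not called (0.76 ± 0.22, adjusted p = 0.0635). It stood at 5.53 CPM in control 1 against 6.50 and 8.06 in mutants 1 and 2, and at 5.88 and 4.83 in controls 2 and 3 against 11.6 in the library labelled mutant 3. The groups did not overlap, and with no filter on low counts the gene was called (adjusted p = 0.0202). Zbtb7a, a repressor of fetal globin genes, stood at 5.08 CPM in control 1 against 7.02 and 10.4 in mutants 1 and 2, and at 15.8 and 16.3 in controls 2 and 3 against 16.9 in the library labelled mutant 3 (adjusted p = 0.298). Markers of lymphoid or dendritic cells were not among the lists used here. The summed level of microglial genes ran from 0.734 to 1.77 CPM and that of erythroid genes from 5.89 to 20.4 CPM.

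The other members of that group, Zbtb17, Zbtb24, Zbtb7b and Zbtb32, were not called. Zbtb17, abundant in all libraries, stood at 64.2, 60.2 and 58.4 CPM in the controls and 67.8, 78.2 and 54.3 in the mutants (log2 fold change 0.029 ± 0.11, adjusted p = 0.894), and the sign of this value turned with RLE scaling, to -0.0012. Zbtb24, mutated in an immunodeficiency with centromeric instability, lay between 13.7 and 16.5 CPM in all libraries (adjusted p = 0.965). Zbtb7b (ThPOK), which directs helper T cells, stayed under 1 CPM (adjusted p = 0.909). Zbtb32 was detected with 5 to 15 counts in the controls and 2 to 11 in the mutants (log2 fold change -0.57 ± 0.51, adjusted p = 0.549).

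**Figure D4:**
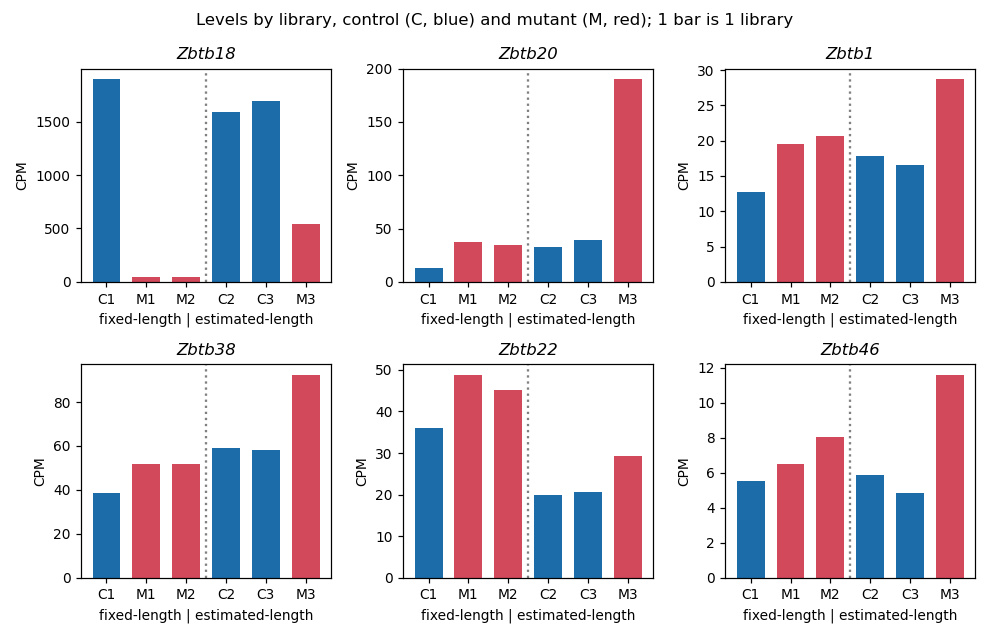
CPM of Zbtb18, Zbtb20, Zbtb1, Zbtb38, Zbtb22 and Zbtb46 in each library, 1 bar per library, with the fixed-length libraries left and the estimated-length libraries right of the dotted line. In each panel the mutants lie on 1 side of the controls of their own type, lower for Zbtb18 and higher for the other genes, with Zbtb20 reaching 190.5 CPM in the library labelled mutant 3.

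None of the 3 members tied to telomeres or genome maintenance was called. Zbtb10 stood at 24.25, 51.65 and 52.2 CPM in the controls against 22.1, 27.5 and 57.2 in the mutants, a spread that followed library type. Its log2 fold change was 0.087 ± 0.11 (adjusted p = 0.638). Zbtb48, whose protein TZAP trims long telomeres, stood at 11.1, 5.94 and 5.61 CPM in the controls and 9.21, 12.0 and 6.12 in the mutants (adjusted p = 0.983). Zbtb40 was higher in each mutant than in the controls of its type, at 17.6 CPM in control 1 against 19.3 and 28.2, and at 22.7 and 23.4 in controls 2 and 3 against 29.9, but did not pass (log2 fold change 0.40 ± 0.15, adjusted p = 0.137).

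Of the 20 less studied members, Zbtb22 was called. It lies beside Tapbp, a gene of antigen presentation, and shares 5.57% of its exonic bases with it on the same strand, so a small part of its reads could belong to either. It stood at 36.0 CPM in control 1 against 48.85 and 45.3 in mutants 1 and 2, and at 19.98 and 20.6 in controls 2 and 3 against 29.4 in the library labelled mutant 3. The rise was 1.38-fold (log2 fold change 0.46 ± 0.08, adjusted p = 0.0121, edgeR). The call was lost without control 2, control 3 or the library labelled mutant 3 (adjusted p = 0.0692, 0.0616 and 0.108), at log2 fold changes of 0.44, 0.46 and 0.39, and by limma on log2(TPM + 1) (0.46, adjusted p = 0.107).

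Zbtb2, a repressor of the cell cycle inhibitor Cdkn1a, was the only member besides Zbtb18 whose mutants all lay below the controls. It stood at 20.9, 20.2 and 19.95 CPM in the controls and 15.2, 15.5 and 17.6 in the mutants, but was not called (log2 fold change -0.32 ± 0.10, adjusted p = 0.0882). Zbtb5, which is known to repress the same inhibitor, stood at 76.4, 75.1 and 74.9 CPM in the controls and 89.1, 75.2 and 83.6 in the mutants (adjusted p = 0.385). Zbtb14 stood at 65.8, 49.2 and 47.5 CPM in the controls and 73.9, 69.5 and 54.5 in the mutants (adjusted p = 0.232). Zbtb8b had no overlap between the groups, at 3.98, 3.84 and 4.48 CPM in the controls and 5.69, 4.89 and 6.53 in the mutants, without a call (log2 fold change 0.53 ± 0.18, adjusted p = 0.102). Its neighbour Zbtb8a did overlap, at 12.9, 11.2 and 10.8 CPM against 13.9, 9.96 and 15.3 (adjusted p = 0.582).

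Counted over all tested members, the mutants lay wholly above the controls in 3 (7.89%, Zbtb46, Zbtb1 and Zbtb8b), against 8.8% of all genes, and wholly below in 2 (5.26%, Zbtb18 and Zbtb2), against 6.64%. When each mutant was set against the controls of its own library type alone, 14 members were higher throughout (36.8%, against 24% of all genes) and 3 were lower throughout (7.89%, against 26.6%). The 3 that were lower were Zbtb18, Zbtb2 and Zbtb32. In the fit with separate effects, 3 members were called within the fixed-length libraries (7.89%, against 9.46% of all genes), namely Zbtb18, Zbtb20 and Zbtb1. Within the estimated-length libraries 5 were called (13.2%, against 7.92%), the same 5 as with the common effect. Each type holds 1 genotype with a single library, so this fit pools the spread over both types.

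**Figure D5:**
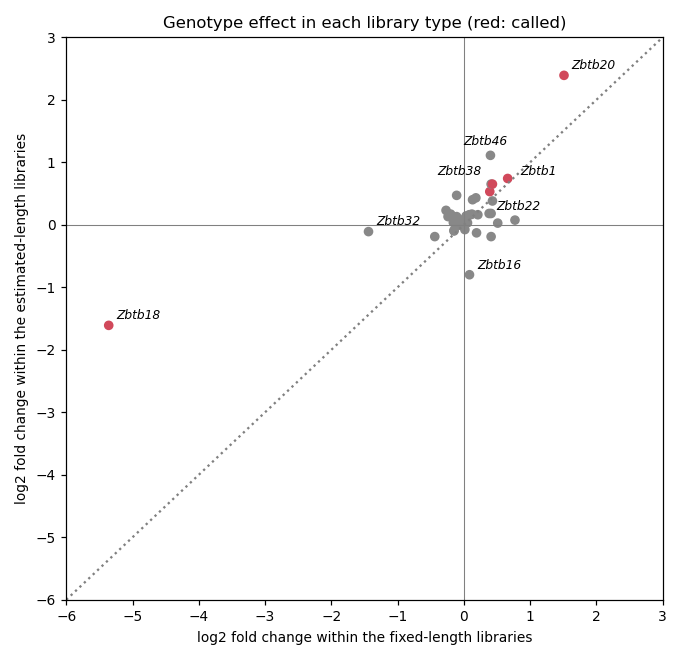
Log2 fold change within the fixed-length libraries (horizontal) against that within the estimated-length libraries (vertical) for the 38 tested members, with equal values on the dotted line. Zbtb18 lies at -5.36 and -1.61, Zbtb20 at 1.51 and 2.39, and the rest crowd near 0.

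Library type moved more members than genotype did. Its term was called for 23 of 38 members (60.5%, against 70.2% of all genes), with 17 higher (44.7%, against 38.2%) and 6 lower (15.8%, against 32.1%) in the estimated-length libraries. Zbtb37 was 4.735-fold and Zbtb20 3.98-fold higher there, and Zbtb12 was 3.32-fold lower (adjusted p = 6.4e-05, 0.000198 and 3e-05). In CPM, Zbtb12 stood at 101.9 in control 1 against 129.9 and 140.0 in mutants 1 and 2, and at 32.3 and 33.99 in controls 2 and 3 against 37.6 in the library labelled mutant 3 (genotype log2 fold change 0.30 ± 0.09, adjusted p = 0.0705). Zbtb37 stood at 6.02 CPM in control 1 against 4.61 and 5.33, and at 24.7 and 22.9 in controls 2 and 3 against 27.8 (genotype adjusted p = 0.984). Some members share exons with other genes, so their reads may be divided or miscounted, as the counting is not stated to use strand. Whether this sharing has a part in the effects of library type was not tested. Zbtb37 shares 15.6% of its exonic bases with Serpinc1 and Zbtb12 shares 7.97% with C2, both on the opposite strand. Zbtb9 shares 84.4% with Ggnbp1 on its own strand, and Zbtb6 and Zbtb26 share 449 bases with each other.

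Of the members not yet described, Zbtb41 had the largest log2 fold change, followed by Zbtb49, and neither was called. Zbtb41 stood at 55.0 CPM in control 1 against 67.0 and 57.5 in mutants 1 and 2, and at 79.5 and 79.0 in controls 2 and 3 against 106.4 in the library labelled mutant 3 (log2 fold change 0.30 ± 0.10, adjusted p = 0.0852). Zbtb49 stood at 8.85 CPM in control 1 against 10.6 and 14.7, and at 14.9 and 16.2 in controls 2 and 3 against 15.8 (0.26 ± 0.19, adjusted p = 0.410). Zbtb39, Zbtb44, Zbtb43, Zbtb11, Zbtb9, Zbtb34, Zbtb3, Zbtb26, Zbtb6 and Zbtb21 had log2 fold changes between -0.13 and 0.18, with adjusted p from 0.174 to 0.982.

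BTB zinc finger genes outside the naming rule of the members, and corepressors that BTB domains recruit, were taken from lists. The former include Zbtb7c, whose letter c the rule leaves out, and which was not called (log2 fold change 0.16 ± 0.18, adjusted p = 0.611, edgeR). Of 9 such zinc finger genes 8 were found and 7 tested, of which none rose, whereas 7.92% of all genes did, and 2 fell, whereas 7.01% of all genes did. Bcl6, a repressor that also drives cortical neurogenesis, stood at 16.6 CPM in control 1 against 6.60 and 9.45 in mutants 1 and 2, and at 14.6 and 21.0 in controls 2 and 3 against 8.10 in the library labelled mutant 3 (log2 fold change -1.09 ± 0.21, adjusted p = 0.0167, edgeR). Its relative Bcl6b stood at 9.06 CPM in control 1 against 2.18 and 2.28, and at 3.39 and 4.10 in controls 2 and 3 against 0.648 (log2 fold change -2.25 ± 0.22, adjusted p = 0.00105). The mutants of Bcl6 lay below every control, and Gzf1, which came next by p, was not called (-0.25 ± 0.07, adjusted p = 0.0735). Without the library labelled mutant 3 the fall of Bcl6b was called and that of Bcl6 was not (-2.02 and -1.05, adjusted p = 0.00804 and 0.1005). Without the library type term neither fall was called (adjusted p = 0.1015 for Bcl6 and 0.443 for Bcl6b).

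Among the corepressors and partners, Tbl1x and Dnmt3a rose. Tbl1x, which encodes a subunit of a histone deacetylase complex, stood at 48.2 CPM in control 1 against 72.9 and 78.7 in mutants 1 and 2, and at 64.9 and 65.0 in controls 2 and 3 against 99.2 in the library labelled mutant 3 (log2 fold change 0.63 ± 0.07, adjusted p = 0.00196, edgeR). Dnmt3a, a DNA methyltransferase, stood at 49.9 CPM in control 1 against 67.4 and 64.2, and at 59.4 and 53.4 in controls 2 and 3 against 85.4 (0.50 ± 0.09, adjusted p = 0.0113). The mutants of both genes lay above every control. Without the library labelled mutant 3 the rise of Tbl1x was called and that of Dnmt3a was not (0.65 and 0.40, adjusted p = 0.0278 and 0.123). Neither rise was called without the library type term (adjusted p = 0.569 for Tbl1x and 0.597 for Dnmt3a). Hdac3, a histone deacetylase, was not called (adjusted p = 0.128). The median log2 fold change over the 7 BTB zinc finger genes was -0.12.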

How the data were processed

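RNA was sequenced in 6 libraries, 3 of each genotype, from a stranded total RNA kit per the labels. FastQC, kallisto and the build mm9 are listed without versions in the submitters' processing notes. Estimated counts and TPM values per transcript were deposited by the authors, per the file headers, together with the length and effective length in bases as other values of kallisto. Of 97251 transcripts, 84637 (87.0%) joined GENCODE vM21 genes, used for names only, and the rest held 6.85% to 8.58% of counts. Gene sums of the estimated counts were rounded for the tests.

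edgeR 4.0.16 (R 4.3.3) was run with TMM scaling, filterByExpr, its default prior count and a library type term. The term was used since the common biological coefficient of variation was 0.186 with and 0.701 without it. The alternatives used no term, DESeq2 1.42.0, RLE factors, no filter, an offset for effective length, limma 3.58.1 on log2(TPM + 1) for genes with a TPM of at least 0.5 in 3 samples, and each library left out. The test of library type itself was chosen after seeing the data. The standard error is the log2 fold change over the square root of F. The gene-level edgeR fits with and without the library type term were also run on simulated counts. Those counts had the same spread setting for all genes and the same change in every mutant, unlike Zbtb18 here. The other fits were not run on simulated counts.

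Members and lists were chosen with earlier results of these data known, as was the library type term. Named by rule were Zbtb18, Zbtb42, Zbtb20, members called, members whose effect differed between library types, the 5 with the highest control TPM, the 3 largest changes not called, and up to 3 genes of each other list with the smallest p. Further members were described by role after their values were seen. Promoter sequences are RefSeq's, build GRCm38.p6, which is not the authors' build. No protein sequence was used here. For 1 gene of the corepressor list the result is not reported here, so that list has no counts.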

Additional observations from a re-analysis of the deposited data

Results flagged for a closer look

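The genotype effect on Zbtb18 differed between the library types in the test of that difference, by -3.75 on the log2 scale (fixed-length minus estimated-length, adjusted p = 0.00963, edgeR). Set against the controls of the same type, the level was 2.45% in mutant 1, 2.40% in mutant 2 and 32.8% in the library labelled mutant 3. The estimated-length side of this difference rests on 1 mutant library, so type and library cannot be told apart.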

How the results depend on the processing

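The number of members called was 5, and 0 without the library type term, 8 with DESeq2, 2 with limma on log2(TPM + 1), and between 2 and 6 when 1 library was left out, with 2 without the library labelled mutant 3 and 3 without control 3. Over all genes the count was 2537, and 400 without the term, 3894 with DESeq2, 950 with limma, and between 1294 and 3034 with 1 library left out. Member transcripts called numbered 1 of 100 (1.74% of all transcripts), and 0 of 100 without the term (0.0163% of all transcripts). They numbered 11 of 144 with DESeq2, 2 of 145 with no filter, and between 0 and 2 with 1 library left out. For these last settings the share over all transcripts was not computed, so their counts say nothing about the family. Zbtb18 was at -3.48, at -3.04 without the term (adjusted p = 0.400), and between -5.36 and -1.59 with 1 library left out. Zbtb17, not called, turned in sign to -0.0045 with DESeq2, -0.0012 with RLE factors, -0.033 with the length offset, -0.11 without control 1 and -0.035 without mutant 2, and with 1 library left out it ranged from -0.11 to 0.19. The cause was not tested. Of 130 comparisons over the other 11 tested members named by rule, 109 kept direction and side of the threshold, 12 lost a call, 4 gained one and 5 turned in sign. With control 1 left out the effect rests on the estimated-length libraries, and without the library labelled mutant 3 on the fixed-length ones, where the remaining single library is assumed to vary like the others. No paired analysis was possible because the labels give the genotypes no shared replicate numbers, and the numbers 1 to 3 used here follow accession order only. Depth limits Zbtb42, Zbtb32 and Zbtb7b, which stayed under 1 CPM.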
